A study of Mus musculus with 6 samples.

Results

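The proteasome is the multi-subunit protease that degrades proteins tagged with ubiquitin, and its subunit transcripts were examined in T cells activated with or without the chemokine CCL19. Members were the genes of the deposited count table whose symbol begins with Psma, Psmb, Psmc, Psmd or Psme and a number, without Psmb8, Psmb9 and Psmb10. This gave 43 of the 24470 genes listed. They comprise 16 genes of the 20S core, 17 of the 19S regulatory particle, 3 assembly chaperones of that particle (Psmd5, Psmd9, Psmd10), 5 activators, and Psmc3ip and Psme3ip1, which match the pattern but encode interacting proteins and not subunits. Of the 43, 41 passed edgeR's filter on low counts. Those that did not pass were Psma8, the germ cell form of Psma7, with 0 to 2 counts a library, and Psmb11, the form of thymic cortex epithelium, with 0 counts in every library.

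The cells were naive CD4+ T cells of male C57BL/6J mice, taken from the spleen and from lymph nodes that drain the skin, and purified by MACS (magnetic beads). The sources used here give neither the age of the mice nor the dose of CCL19. In both groups the cells were cultured for 6 h on plates coated with antibodies to CD3 and CD28, the coating at 1 µg/mL, so every library comes from cells under an activating stimulus. Recombinant mouse CCL19, a ligand of the receptor CCR7, was present in 3 samples and absent from the 3 others (labelled NoCKN). The labels do not say whether replicates were separate mice or cultures. The p-values therefore reflect only how far these samples spread, and that spread may be technical.

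In the 20S core, rings of alpha subunits form the gated entrance and rings of beta subunits hold the proteolytic sites, which in the constitutive particle belong to Psmb5, Psmb6 and Psmb7. Lymphocytes also express Psmb8, Psmb9 and Psmb10, which replace those 3 in the immunoproteasome. The 19S regulatory particle caps the core. Its base holds a ring of ATPases (Psmc1 to Psmc6) that unfold substrates, and its lid holds Psmd14, the metalloprotease that cuts off the ubiquitin chain. The activators of the Psme family open the core without ATP. Activated T cells grow quickly, which calls for both protein synthesis and protein turnover.

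Libraries held 16978736 to 27429898 counts. The 6 markers of CD4 T cells, which include Cd4 itself, were all detected and summed to 2239 to 2429 CPM (counts scaled to library size, with TMM factors) with CCL19 and 2361 to 2575 without. Markers of B cells (all 5 detected) summed to 15.04 to 19.8 CPM with CCL19 and 18.7 to 22.2 without. The 3 stromal and endothelial markers (Pdgfrb, Col1a1 and Pecam1), all detected, summed to 190.1 to 242.6 CPM with CCL19 and 233.1 to 277 without. Of these, 2 passed the filter on low counts. The sum was not split by gene, so it is not a measure of stromal cells in the samples. Ranges of the B cell and stromal sums overlapped between the groups, and the part of such differences in the results was not tested. CD8 (12.4 to 17.2 and 14.6 to 14.98 CPM), myeloid (7.16 to 11.2 and 6.89 to 13.0) and NK cell markers (11.97 to 16.6 and 12.7 to 16.7) also overlapped between the groups. In these bulk samples, fewer cells of a type and less RNA per cell cannot be told apart. On the leading component of log2 CPM over all genes (41.8% of the variance), no-CCL19 replicate 1 lay farthest down at -24.7 and CCL19 replicate 3, at 1.69, lay nearest to the no-CCL19 libraries.

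Proteasome genes are known targets of NFE2L1, which raises their transcription through antioxidant response elements when proteolytic capacity falls short, so the promoters were searched for the element's core, TGACNNNGC, on both strands. RefSeq windows on GRCm38.p6 (250 bases before the start site and 50 after) matched 36 of the 43 genes, in 40 windows. The element was found in 6 windows, or 15%, against 12.39% of all 32851 windows. The upstream 250 bases are shown for the 4 particle subunits among them, which lie in both the core and the regulatory particle. Psmb5 (chr14:54617996-54618245, minus strand) and Psmb6 (chr11:70525107-70525356, plus strand) encode catalytic subunits, and Psmc6 (chr14:45329574-45329823, plus strand) and Psmd12 (chr11:107479278-107479527, plus strand) belong to the regulatory particle. Each is written 5′ to 3′ along the gene, and capitals mark the match to TGACNNNGC or its reverse complement.
Psmb5: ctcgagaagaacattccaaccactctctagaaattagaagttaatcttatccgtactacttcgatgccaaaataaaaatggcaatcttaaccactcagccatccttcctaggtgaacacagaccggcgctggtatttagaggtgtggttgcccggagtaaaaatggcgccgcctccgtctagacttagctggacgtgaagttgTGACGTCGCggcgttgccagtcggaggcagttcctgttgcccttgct
Psmb6: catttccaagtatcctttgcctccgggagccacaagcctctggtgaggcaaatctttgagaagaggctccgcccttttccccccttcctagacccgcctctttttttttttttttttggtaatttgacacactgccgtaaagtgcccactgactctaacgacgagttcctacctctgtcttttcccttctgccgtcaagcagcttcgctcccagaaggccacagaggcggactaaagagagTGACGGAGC
Psmc6: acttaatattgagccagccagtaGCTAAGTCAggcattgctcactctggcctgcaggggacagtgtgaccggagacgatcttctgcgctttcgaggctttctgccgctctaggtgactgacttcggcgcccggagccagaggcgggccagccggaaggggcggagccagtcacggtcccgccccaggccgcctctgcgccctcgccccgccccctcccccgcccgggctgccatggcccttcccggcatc
Psmd12: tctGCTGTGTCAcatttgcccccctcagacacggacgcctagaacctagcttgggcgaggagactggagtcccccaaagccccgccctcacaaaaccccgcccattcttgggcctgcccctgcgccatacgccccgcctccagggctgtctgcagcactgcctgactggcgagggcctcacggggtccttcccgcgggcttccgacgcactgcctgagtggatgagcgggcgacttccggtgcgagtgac
The match begins 47 bases before the start site in Psmb5, 9 in Psmb6, 227 in Psmc6 and 247 in Psmd12. The other windows with a match were those of Psmd9 and Psme4. CCAAT boxes (CCAAT, both strands; no motif searched contains another) lay in 15 member windows (37.5%), against 37.41% of all windows, and the E-box CACGTG in 4 (10%) against 7.15%. CCAAT boxes lay in 7 of 13 core windows (53.85%) and 4 of 15 windows of the regulatory particle (26.67%). The 7 included Psmb11, which had 0 counts in every library, and the upstream but not the downstream window of Psma6. Psma8, Psmb1, Psmb2, Psmb7, Psmc3, Psmd3 and Psmd7 had no window, and the contrast was not tested. A match describes the letters and is not evidence of binding.

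With CCL19, transcripts of most proteasome subunits stood slightly higher than without it, by at most 1.26-fold (Psmc6) before any offset for base composition. This held for the whole alpha ring, 5 of 6 ATPases and most of the lid, while Psmb1, Psmb5, Psmb6 and Psmd4 were close to level. Of the 41 tested members, 39 had a log2 fold change above 0 (95.1%), against 49.8% of all 11666 genes tested. The median log2 fold change was 0.20 for members and 0.00 for all tested genes. edgeR's quasi-likelihood test with Benjamini-Hochberg adjustment over all genes called 0 members, as it called 0% of all genes, with adjusted p from 0.0505 to 0.9995 over the members. At an unadjusted p under 0.05, edgeR had 23 members higher (56.1%) and 0 lower, against 14.5% and 13% of all genes. limma-voom called 0 members and 0% of all genes.

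At the same threshold, DESeq2 called 11 members higher and 0 lower, where it called 6.55% of all genes higher and 5.6% lower. The 11 were Psma1, Psma5, Psma6, Psmc2, Psmc5, Psmc6, Psmd1, Psmd7, Psmd12, Psmd14 and Psme3, and they are the same 11 that the authors' deposited table lists as higher with CCL19. That table holds 630 genes higher and 538 lower, as many as DESeq2 called here. The match is a repeat on the same counts and not independent support. The DESeq2 count fell to 0 without CCL19 replicate 1, without CCL19 replicate 2 or without no-CCL19 replicate 1, fits in which 0.335%, 0.699% and 1.83% of all genes were called higher. It was 12 without CCL19 replicate 3, where 9.2% of all genes were called higher and 8.12% lower, and 12 without no-CCL19 replicate 3, where 7.45% were called higher and 5.77% lower. In 25 members (61.0%) all 3 CCL19 libraries lay above all 3 others, against 15.3% of all genes, and in 0 members they lay below, against 14.5%. With each library left out in turn, 25 to 32 members lay above and 0 below.

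**Figure D1:**
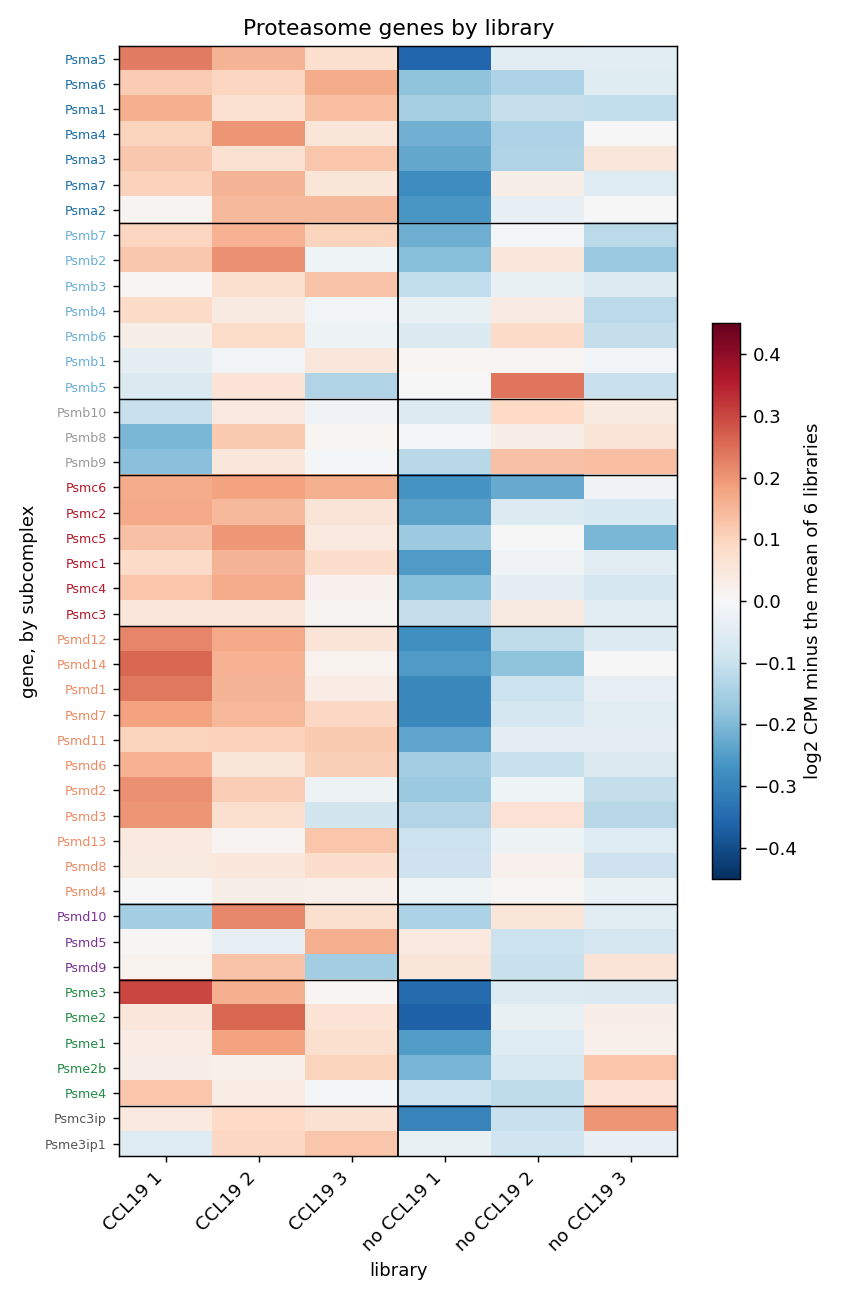
Heat map of log2 CPM minus the gene's mean over the 6 libraries (colour scale, red above and blue below the mean), with genes in rows grouped by subcomplex and libraries in columns. Most rows of the alpha ring and the regulatory particle are red in the 3 CCL19 columns and bluest in no-CCL19 replicate 1, while Psmb1 and Psmd4 stay near 0 across all 6.

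The 7 tested alpha subunits, which form the outer rings of the core, all stood higher with CCL19, with log2 fold changes from 0.20 (Psma2) to 0.30 (Psma5) and a median of 0.24. Psma6 stood at 116, 114 and 120.1 CPM with CCL19 and at 94.4, 97.3 and 103 CPM without. The lowest CCL19 library lay above the highest of the others, and the log2 fold change was 0.25 ± 0.07 (SE; edgeR adjusted p = 0.0604, DESeq2 adjusted p = 0.0257). Psma1 (NCBI Gene 26440, mm10 chromosome 7, 114264550 to 114276116) stood at 115, 107 and 113 CPM against 92.4, 95.4 and 94.8 CPM. Replicates were tight in both groups, and the log2 fold change was 0.24 ± 0.07 (edgeR adjusted p = 0.0604, DESeq2 adjusted p = 0.0265). Psma5, called by DESeq2 (adjusted p = 0.0397), had the largest fold change of the ring, at 81.1 ± 4.44 CPM (mean ± SD, n = 3) against 66.0 ± 7.81 CPM.

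The alpha subunit with the weakest edgeR p was Psma7, at 216, 223 and 208 CPM with CCL19 and 165, 204 and 192 CPM without. Here too the groups did not overlap, but no-CCL19 replicate 2 came within a few CPM of CCL19 replicate 3, and the log2 fold change was 0.20 ± 0.08 (edgeR adjusted p = 0.141). Psma2, Psma3 and Psma4 had log2 fold changes of 0.20, 0.21 and 0.24, each with groups that did not overlap and DESeq2 adjusted p from 0.057 to 0.123. Psma3 overlaps 3110056K07Rik on the opposite strand over 4263 bp. Whether counting used strand is not stated, which leaves its counts uncertain.

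The beta ring was less uniform, with log2 fold changes from -0.10 to 0.23 and a median of 0.08 over 7 tested genes. DESeq2 called 0 of them, where it called 6.55% of all genes higher and 5.6% lower. At an unadjusted edgeR p under 0.05, 2 were higher (28.6%, against 14.5% of all genes) and 0 lower. Psmb7, the subunit with trypsin-like activity, stood at 113, 117 and 113 CPM with CCL19 and 90.5, 105 and 97.1 CPM without. Groups did not overlap, and its log2 fold change of 0.23 ± 0.07 (edgeR adjusted p = 0.0775, DESeq2 adjusted p = 0.0519) was the largest of the ring. Psmb2 stood at 128, 136 and 116 CPM against 103, 122 and 105 CPM. Its groups overlapped, since no-CCL19 replicate 2 lay above CCL19 replicate 3 (log2 fold change 0.20 ± 0.09, edgeR adjusted p = 0.146).

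The other catalytic subunits were not called. Psmb5 (NCBI Gene 19173, mm10 chromosome 14, 54614120 to 54617995), the chymotrypsin-like subunit that clinical proteasome inhibitors bind, stood at 31.9, 34.8 and 30.3 CPM with CCL19 and 33.3, 39.4 and 31.1 CPM without. Its values were mixed between the groups, with a log2 fold change of -0.10 (95% interval -0.32 to 0.12, edgeR adjusted p = 0.545). Psmb6, the caspase-like subunit, stood at 141, 147 and 137 CPM against 133, 147 and 129 CPM. Its groups overlapped too, with a log2 fold change of 0.06 (-0.10 to 0.22, edgeR adjusted p = 0.66). Psmb1, a beta subunit without a proteolytic site, stood at 136, 138 and 145 CPM against 140.5, 140.0 and 138 CPM. That is a log2 fold change of 0.00 with a 95% interval of -0.14 to 0.14. Psmb3 (0.14) and Psmb4 (0.08) lay in between, and neither passed.

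Psmb8, Psmb9 and Psmb10, the immunoproteasome counterparts that the member rule leaves out, had log2 fold changes of -0.05, -0.10 and -0.04, and DESeq2 and edgeR called none. Psmb8 stood at 199.6, 249.5 and 232 CPM with CCL19 and 229, 235 and 239.5 CPM without, with CCL19 replicate 1 below all the others. Psmb9 stood at 113, 133 and 128 CPM against 118, 141 and 141 CPM. Psmb10 stood at 78.7, 86.9 and 83.4 CPM against 80.8, 89.6 and 86.7 CPM. For both of these, the groups overlapped. Per transcript length, Psmb8 exceeded Psmb5 by 3.46-, 3.96- and 4.22-fold with CCL19 and by 3.80-, 3.29- and 4.25-fold without. The ratio of Psmb10 to Psmb7 was 0.618, 0.655 and 0.653 with CCL19 and 0.79, 0.758 and 0.79 without, so it was lower in all 3 CCL19 libraries. The ratio of Psmb9 to Psmb6 overlapped between the groups (0.519 ± 0.0435 against 0.578 ± 0.0629, mean ± SD, n = 3). These ratios were chosen after the values were seen and carry no test. They also carry no offset for base composition, and GC content was 56.52% for Psmb10 and 48.71% for Psmb7. With an offset for GC content and transcript length, their log2 fold changes were 0.05 and 0.22.

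**Figure D2:**
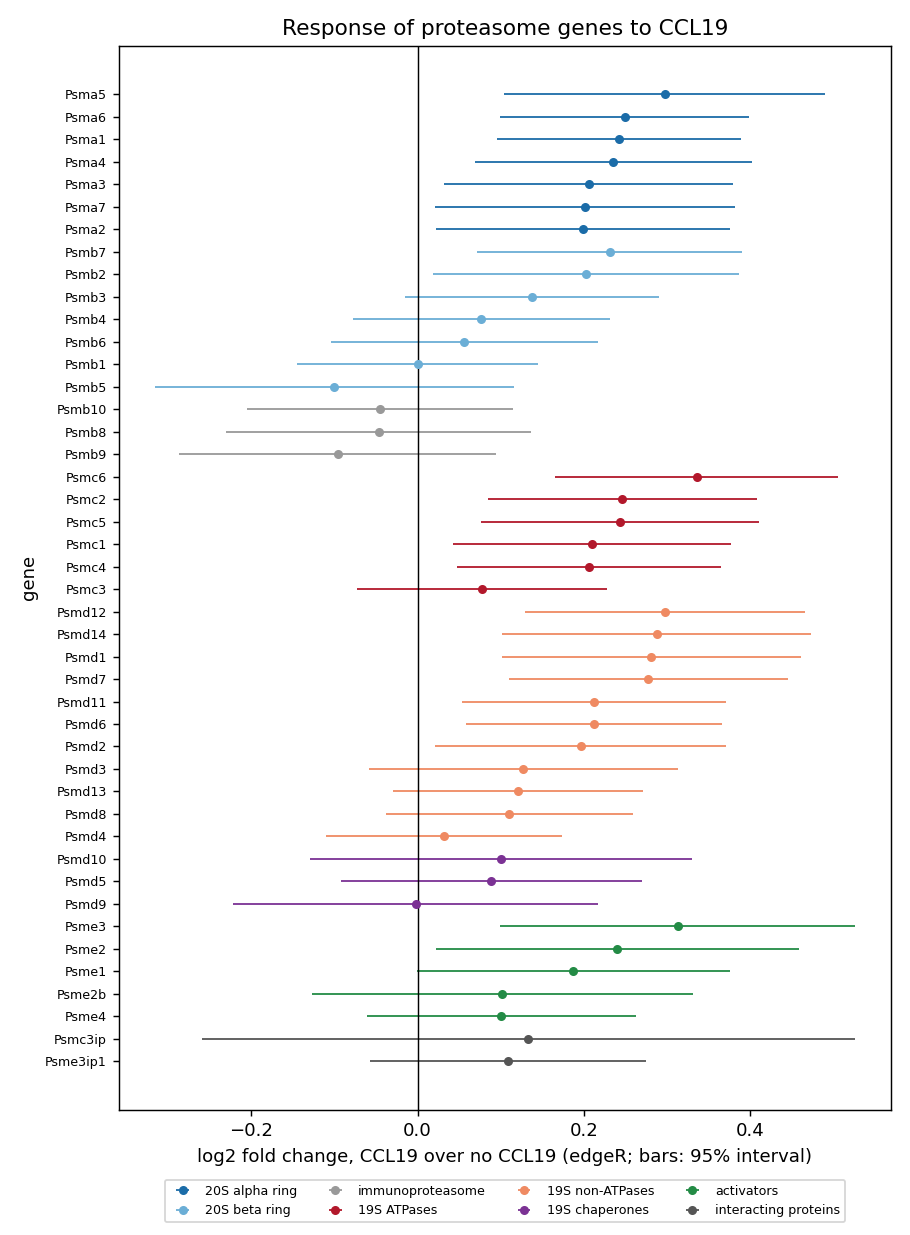
Log2 fold change of CCL19 over no CCL19 (x axis; points, edgeR estimates; bars, 95% intervals) for each of the 41 tested members and the 3 immunoproteasome subunits, ordered within subcomplexes (colours). All 7 alpha subunits lie between 0.20 and 0.30, whereas beta subunits run from -0.10 to 0.23 and the immunoproteasome subunits lie below 0.

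Of the 6 ATPases at the base of the regulatory particle, 3 were called higher by DESeq2 (50%, against 6.55% of all genes). In 5 (83.3%) all CCL19 libraries lay above the others, against 15.3% of all genes. The median log2 fold change of the ATPases was 0.23. Psmc6 (NCBI Gene 67089, mm10 chromosome 14, 45329824 to 45349071) stood at 92.3, 93.2 and 91.8 CPM with CCL19 and at 68.4, 70.3 and 81.4 CPM without. CCL19 libraries were nearly equal and all lay above the others, and the log2 fold change of 0.34 ± 0.08 was the highest of all members in that fit (edgeR adjusted p = 0.0505, DESeq2 adjusted p = 0.00919). Its transcript also had the lowest GC content of the tested members (36.97%), and with an offset for GC content and transcript length its log2 fold change was 0.20, its DESeq2 call was lost (adjusted p = 0.0966) and Psme3 was highest (0.31). Psme3 also exceeded it without CCL19 replicate 3 (0.38 against 0.33) and without no-CCL19 replicate 2 (0.36 against 0.30). Psmc2 stood at 170.1, 167 and 157 CPM against 128, 145 and 144 CPM. The groups did not overlap (log2 fold change 0.25 ± 0.08, edgeR adjusted p = 0.0705, DESeq2 adjusted p = 0.0363).

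Psmc5 was also called by DESeq2, at 174 ± 9.21 against 147 ± 11.4 CPM (log2 fold change 0.24, DESeq2 adjusted p = 0.0411). Psmc1 (0.21) and Psmc4 (0.21) were not called, with DESeq2 adjusted p of 0.0917 and 0.0727. The ATPase that stood apart was Psmc3, whose tail docks into the alpha ring, at 176, 176 and 172 CPM with CCL19 and 158, 175 and 164 CPM without. Its groups overlapped, and its log2 fold change was 0.08 (95% interval -0.07 to 0.23, edgeR adjusted p = 0.502).

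All 11 non-ATPase subunits of the regulatory particle had a log2 fold change above 0, with a median of 0.21. DESeq2 called 4 of them higher (36.4%, against 6.55% of all genes). Psmd12, a scaffold of the lid, stood at 122, 118 and 109.6 CPM with CCL19 and at 86.9, 97.3 and 101 CPM without. The groups did not overlap, and the log2 fold change was 0.30 ± 0.08 (edgeR adjusted p = 0.0542, DESeq2 adjusted p = 0.0181). Psmd14 (NCBI Gene 59029, mm10 chromosome 2, 61711694 to 61800376), the deubiquitinase, stood at 111, 104 and 93.9 CPM against 77.9, 82.0 and 93.0 CPM. CCL19 replicate 3 and no-CCL19 replicate 3 were almost equal here, with a log2 fold change of 0.29 ± 0.09 (edgeR adjusted p = 0.0678, DESeq2 adjusted p = 0.0371).

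Psmd7, the lid protein that pairs with Psmd14, stood at 159, 156 and 150.0 CPM with CCL19 and 115, 133 and 136 CPM without. All CCL19 libraries lay above all others (log2 fold change 0.28 ± 0.08, edgeR adjusted p = 0.0604, DESeq2 adjusted p = 0.0232). The last of the 4 was Psmd1, a large scaffold of the base, at 198 ± 14.1 against 163 ± 14.7 CPM (log2 fold change 0.28, DESeq2 adjusted p = 0.0284). Psmd11 and Psmd6, both of the lid, each had 0.21 with groups that did not overlap, and Psmd2, the other large scaffold of the base, had 0.20 with groups that overlapped.

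Smaller values were found for Psmd3 (0.13), Psmd13 (0.12) and Psmd8 (0.11), and the smallest for Psmd4, a ubiquitin receptor of the particle. Psmd4 stood at 152, 155 and 154 CPM with CCL19 and 149.9, 153 and 149 CPM without. The 6 libraries were nearly level, with a log2 fold change of 0.03 (95% interval -0.11 to 0.17, edgeR adjusted p = 0.788). The assembly chaperones of the base, which are not part of the finished particle, were not called, with log2 fold changes of 0.10 for Psmd10, 0.09 for Psmd5 and 0.00 for Psmd9.

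Core and regulatory particle had nearly the same median log2 fold change, 0.20 over 14 tested genes and 0.21 over 17, a difference of -0.01. The mean of centred log2 CPM was 0.08, 0.11 and 0.06 for the core and 0.14, 0.11 and 0.05 for the regulatory particle in CCL19 replicates 1, 2 and 3. It was -0.16, -0.01 and -0.07 for the core and -0.19, -0.05 and -0.07 for the regulatory particle in the no-CCL19 replicates. For both, CCL19 libraries lay above the others and no-CCL19 replicate 1 was lowest. The difference of core minus regulatory particle within a library was -0.06, -0.01 and 0.01 with CCL19 and 0.03, 0.04 and 0.00 without, so the groups overlapped. Without no-CCL19 replicate 1 the medians were 0.13 for the core and 0.16 for the regulatory particle. That library also lay at the low end of the leading component of all genes, with CCL19 replicate 1 at the high end (25.4), and the part of that component in the subunits' difference was not tested.

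**Figure D3:**
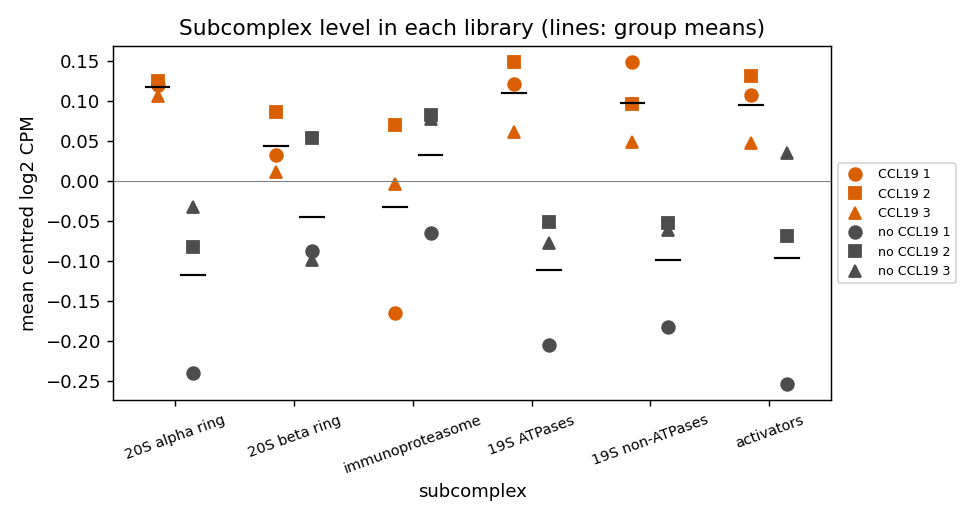
Mean centred log2 CPM of each subcomplex (y axis) in each library (orange, CCL19; grey, no CCL19; marker shape, replicate; lines, group means). The alpha ring, both parts of the regulatory particle and the activators separate the groups, the last narrowly (0.05 against 0.03), while the beta ring and the immunoproteasome overlap, and no-CCL19 replicate 1 is lowest in 4 of the 6 sets shown.

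Within the core, the alpha ring's median exceeded that of the beta ring by 0.16 on the log2 scale. The difference of alpha minus beta within a library was 0.09, 0.04 and 0.09 with CCL19 and -0.15, -0.14 and 0.07 without, with no-CCL19 replicate 3 among the CCL19 values. Base composition moved with this contrast. Over all tested genes the median log2 fold change ran from 0.12 in the lowest of 10 classes of GC content to -0.16 in the highest, and the median GC content was 44.98% for alpha and 52.24% for beta subunits. With an offset for GC content and transcript length, the medians were 0.18 for the alpha and 0.15 for the beta ring, and their difference was 0.04. Under that offset Psma2 had a log2 fold change of 0.08 and Psma3 0.11, each over 1.5 times smaller than without it. Psmb5 had 0.00, Psmb6 0.15 and Psmb1 -0.07. The core had a median of 0.18 and the regulatory particle 0.21 with it, and 40 of the 41 members lay above 0. DESeq2 with the offset called 5 members higher (Psma6, Psmc4, Psmc5, Psmd7 and Psme3) and 0 lower, where it called 7.33% of all genes higher and 3.52% lower. Of all its calls 67.6% were then higher, against 53.9% without the offset.

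**Figure D4:**
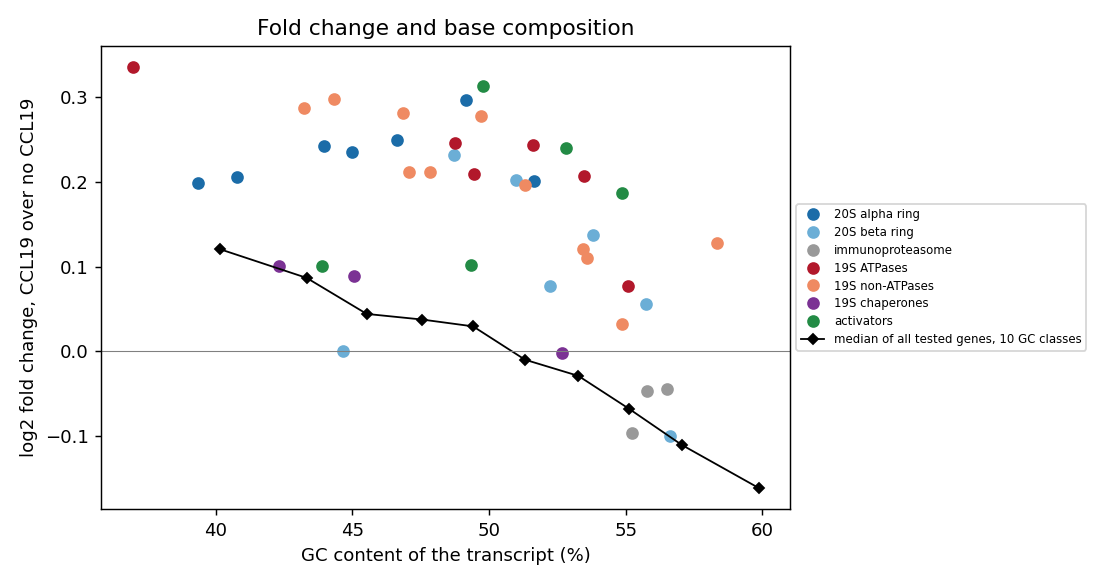
Log2 fold change (y axis) against GC content of the transcript (x axis, percent) for the tested subunits, chaperones, activators and immunoproteasome genes (coloured points), with the medians of all tested genes in 10 classes of GC content (black diamonds). Most regulatory particle and alpha ring genes lie above the black line at their own GC content, and Psmb5, Psmb8, Psmb9 and Psmb10 lie close to it.

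Among the activators, all 5 tested genes had a log2 fold change above 0, with a median of 0.19. DESeq2 called 1 higher (20%, against 6.55% of all genes). Psme3 (NCBI Gene 19192, mm10 chromosome 11, 101316251 to 101323531) encodes the nuclear activator PA28 gamma and had the most counts of all members. It stood at 560.4, 509 and 458 CPM with CCL19 and 358, 436 and 435 CPM without. The groups did not overlap, and the log2 fold change was 0.31 ± 0.10 (edgeR adjusted p = 0.0754, DESeq2 adjusted p = 0.0237). Psme1 and Psme2 encode the subunits of PA28 alpha-beta, which serves antigen processing. Psme1 stood at 371, 411 and 382 CPM against 305, 349 and 369 CPM, and Psme2 at 270.5, 313 and 272 CPM against 203, 255 and 267 CPM. Groups did not overlap in either, by a narrow margin over no-CCL19 replicate 3, and neither was called (log2 fold change 0.19, DESeq2 adjusted p = 0.133, and 0.24, DESeq2 adjusted p = 0.105).

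Psme4, the large activator PA200, stood at 104, 97.5 and 95 CPM with CCL19 and 89.0, 88.0 and 99.3 CPM without it. Its groups overlapped (log2 fold change 0.10, edgeR adjusted p = 0.408). Psme2b is a copy of Psme2, with which it may share reads, and shares 261 bp of the same strand with 9930111J21Rik1, which leaves its counts uncertain (19.2 ± 0.573 against 17.9 ± 2.12 CPM). The interacting proteins Psmc3ip (0.13) and Psme3ip1 (0.11) were not called.

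Levels of different subunits can be set beside each other per transcript length, as CPM per kb averaged over the 6 libraries. Psme1 was highest at 328 ± 32.0 (SD over the 6 libraries of both groups) and Psme2 followed at 274 ± 37.0. Their spreads overlap, but within every library Psme1 lay above Psme2. In the core, Psma7 (220.2 ± 22.4) and Psmb6 (174 ± 9.54) were highest and Psmb5 was lowest in the beta ring at 37.2 ± 3.70. The regulatory particle ran from Psmc6 at 37.1 ± 5.09 and Psmd13 at 44.8 ± 2.48 to Psmc5 at 122 ± 13.3 and Psmd4 at 114 ± 1.82. Psmc5 lay above Psmd4 in every CCL19 library, and their order was mixed without CCL19. Values for Psma2 (51.9) and Psma3 (28.3) rest on transcripts of 2911 and 2846 bases, the longest with a RefSeq match, and would be higher for shorter forms. Assembly chaperones were lower than the subunits of their particle, at 8.33 for Psmd9, 10.03 for Psmd5 and 16.3 for Psmd10.

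**Figure D5:**
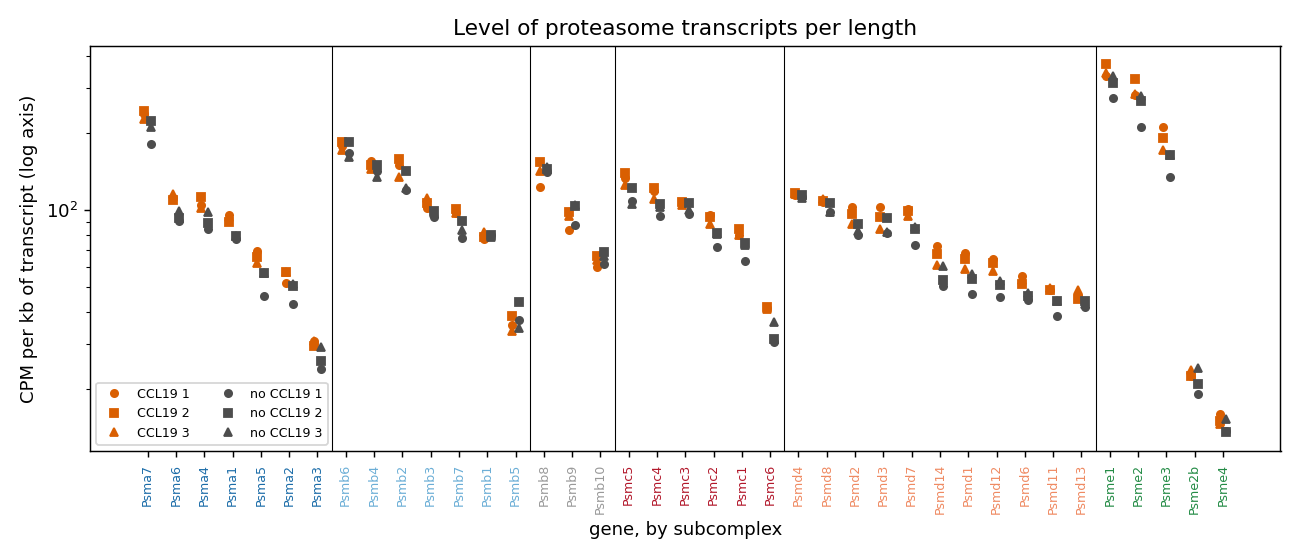
CPM per kb of transcript (y axis, log scale) in each library (orange, CCL19; grey, no CCL19; marker shape, replicate), with genes ordered by mean level within each subcomplex along the x axis. Subunits of one ring differ several-fold, from 37.2 for Psmb5 to 174 for Psmb6 in the beta ring, whereas the shift with CCL19 is small beside those differences. The lowest alpha ring value, 28.3 for Psma3, rests on a long transcript and would be higher for a shorter form.

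Genes around the proteasome were counted by list. Of 11 tested genes for assembly factors and inhibitors, which include the 3 chaperones above, 9 had a log2 fold change above 0 (median 0.10). That was 81.8%, against 49.8% of all tested genes. DESeq2 called 1 higher (9.09%) and 0 lower, where it called 6.55% of all genes higher and 5.6% lower. The gene called was Pomp, the maturation factor of the beta ring, at 126 ± 4.91 against 103 ± 8.28 CPM (log2 fold change 0.29 ± 0.08, DESeq2 adjusted p = 0.0166). Of 15 associated receptors, enzymes and subunits outside the symbol pattern, 13 had a log2 fold change above 0 (86.7%, median 0.15). DESeq2 called 2 of these genes higher (13.3%, against 6.55% of all genes) and 0 lower. The 2 called were Uchl5, a deubiquitinase of the regulatory particle, at 34.9 ± 2.36 against 26.8 ± 2.87 CPM (0.38 ± 0.10), and the shuttle receptor Ubqln1 (0.26 ± 0.08). The remaining subunits of the regulatory particle, Sem1 (0.15) and the ubiquitin receptor Adrm1 (0.11), were not called.

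Of 10 regulators of proteasome genes, DESeq2 and edgeR called 0. At an unadjusted edgeR p under 0.05, 1 was higher with CCL19 (10%, against 14.5% of all genes). That was Mafk, a small partner of Nfe2l1 and Nfe2l2, at 148 ± 15.2 against 128 ± 14.0 CPM (log2 fold change 0.21 ± 0.09, edgeR adjusted p = 0.161). Ngly1, the glycanase that processes Nfe2l1, had the largest value in the other direction, at 30.0 ± 5.03 against 35.6 ± 4.02 CPM (-0.24 ± 0.12, edgeR adjusted p = 0.214). Nfe2l1 stood at 209 ± 12.9 against 188.5 ± 12.9 CPM (log2 fold change 0.15 ± 0.08, edgeR adjusted p = 0.241), and Nfe2l2 at 64.1 ± 5.61 against 64.7 ± 6.53 CPM. Of 19 genes of ubiquitin, its activation and the p97 segregase, DESeq2 called 1 higher and 1 lower, with a median of 0.10. Uba6, a ubiquitin-activating enzyme, stood at 52.0 ± 8.10 against 40.3 ± 4.87 CPM (0.37 ± 0.11, DESeq2 adjusted p = 0.0367). The segregase Vcp had 0.19 (DESeq2 adjusted p = 0.0928), with groups that did not overlap.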

How the data were processed

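Library preparation used a TruSeq RNA kit, per the labels' protocols. STAR 2.5, featureCounts 1.5.0-p1 (Subread) and the build mm10 are named in the submitters' processing notes. The authors deposited raw read counts per gene, without normalization, and a list of genes they called, each with its direction. Their notes also name DESeq2 1.28.1. How strand and multiply matching reads were treated, and the annotation used, is not stated.

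Members and lists were chosen with earlier results of these data known. All 6 libraries entered edgeR 4.0.16 (filterByExpr, TMM, quasi-likelihood F test) in R 4.3.3, with Benjamini-Hochberg adjustment over 11666 genes and a threshold of 0.05. SE and 95% intervals derive from that fit. DESeq2 1.42.0 (all genes of the table, 9613 given an adjusted p) and limma 3.58.1 (voom) were alternatives. Other alternatives were DESeq2 size factors, other filters, a robust prior, a replicate block, each library left out, and a per-library offset on GC content and length (natural splines, 5 degrees of freedom each). GC content and length came from the longest GENCODE M21 transcript with a RefSeq match (95.9% of tested genes, all 43 members).

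Members shown library by library were the 2 of smallest and the 1 of largest edgeR p in each ring or group, catalytic subunits, Psmd14, activators and the immunoproteasome. Other pathway genes were named where DESeq2 called them, except 1 that is not reported here; Sem1, Adrm1, Mafk, Ngly1, Nfe2l1, Nfe2l2 and Vcp were chosen after their values were seen. Medians and library means over members carry no test. The fits were tested on simulated data. Figures used matplotlib 3.10.9.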

Additional observations from a re-analysis of the deposited data

How the results depend on the processing

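The medians of core and regulatory particle stayed above 0 in every setting tried. With each library left out they ranged from 0.13 to 0.22 and from 0.16 to 0.24, and the difference of core minus regulatory particle from -0.04 to -0.01. The alpha minus beta difference, added after the values were seen, was 0.0353 with the GC and length offset and 0.0338 with that offset and the replicate block. It ranged from 0.11 to 0.25 with each library left out, the highest without no-CCL19 replicate 3. Counts of called members depended on the setting. edgeR, with 0 calls, had 10 without a filter, 2 with a robust prior, and 0 to 9 with each library left out (9 without CCL19 replicate 3, where 6.5% of all genes were called higher and 6.97% lower, and 2 without no-CCL19 replicate 3, where 1.98% and 2.34% were), against 11 by DESeq2. The DESeq2 count was 0 by limma-voom, 5 with the offset, and 0 to 12 with each library left out. The count of members whose groups do not overlap ranged from 25 to 32, against 16.9% to 25.4% of all genes. Over all genes edgeR called 5.05% higher and 5.01% lower without a filter, where 15905 genes were tested, and 267 genes higher and 262 lower with a robust prior.

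The labels do not say whether same-numbered libraries belong together. Their deviations from the group means correlated at -0.164, 0.0814 and -0.0207, so no pairing was detectable and the numbers were not used as pairs. With a replicate block DESeq2 called 0 members, where it called 1.71% of all genes higher and 1.25% lower. With block and offset it called 0 members and 0% of all genes, and edgeR called 0 of either in both fits.

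Of the genes shown library by library, 17 alternative values changed sign, all within 0.07 of 0. Psmb1 had -0.0004 by limma-voom, -0.0044 without a filter, -0.0066 with a 1 CPM filter, -0.0005 with the replicate block, -0.0653 with the offset and -0.0642 with offset and block, and ranged from -0.0328 (without CCL19 replicate 3) to 0.0157 with each library left out. Psmb5 had 0.0034 with the offset, 0.0059 with offset and block and -0.1737 to 0.0009 with each library left out. Psmb8 had 0.029 with the offset, 0.0262 with offset and block and -0.1201 to 0.0327 with each library left out, and Psmb10 0.0473 with the offset and 0.0481 with offset and block. The cause was not tested.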
